A study of Homo sapiens with 4 samples.

Results

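The 10 genes described here encode transcription factors that mark non-neural lineages of the early embryo. They are TBXT, MIXL1, EOMES and GSC of the primitive streak and mesoderm, GATA4, GATA6, SOX17 and FOXA2 of the endoderm, and HAND1 and CDX2, which mark trophoblast as well as extraembryonic or posterior mesoderm. They were chosen by gene symbol, each symbol occurred once in every count table, and they are 10 of 62696 genes. The libraries are bulk RNA-seq of NT2 (NTERA-2), a human embryonal carcinoma line, with 1 library of cells carrying an empty vector (genotype given as wild type), the control library, and 3 of cells given as HYDIN2 knockdown. All 4 came from rRNA-depleted total RNA of cells grown in the same serum-containing medium. How the knockdown was made, and whether its 3 replicates were separate cultures or clones, is not given in the sources used here, so the spread between them may be technical.

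Embryonal carcinoma cells resemble the pluripotent cells of the early embryo, and exit from that state toward a lineage is accompanied by the start of such factors. TBXT, MIXL1, EOMES and GSC come on as cells pass through the primitive streak, SOX17, FOXA2 and the GATA factors as endoderm forms, and CDX2 and HAND1 in trophoblast. None of these genes is exclusive to its lineage, since HAND1, GATA4 and GATA6 also act in heart mesoderm and EOMES in trophoblast.

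HAND1 and MIXL1 had the highest levels per kilobase of the 10 in the control. The DNA before their start sites is shown because HAND1 was called higher in all 3 knockdown libraries, while MIXL1 lay above the control in replicate 3 and just under it in the others. Both stretches begin 250 bases before the RefSeq start (GRCh38.p14), are read 5′ to 3′ on the gene's strand, and stop before the first exonic base of GENCODE 29. Capitals mark a GATA core (GATAA) or a CCAAT box (CCAAT), searched on both strands. The HAND1 stretch lies on the minus strand at chr5:154478265-154478477 and the MIXL1 stretch on the plus strand at chr1:226223414-226223617.
HAND1: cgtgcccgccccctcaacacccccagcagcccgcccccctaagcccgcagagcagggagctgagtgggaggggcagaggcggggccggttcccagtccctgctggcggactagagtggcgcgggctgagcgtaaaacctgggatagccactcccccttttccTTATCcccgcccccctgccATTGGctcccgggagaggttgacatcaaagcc
MIXL1: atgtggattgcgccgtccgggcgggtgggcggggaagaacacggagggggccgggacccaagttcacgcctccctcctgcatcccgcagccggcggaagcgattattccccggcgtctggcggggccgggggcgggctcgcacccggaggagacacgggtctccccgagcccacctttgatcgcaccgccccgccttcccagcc
The HAND1 stretch held 1 GATA core, 1 CCAAT box and 3 GC boxes (GGGCGG), and the MIXL1 stretch held 0, 0 and 4. Over the same distances as in HAND1, 18.1% of 35116 RefSeq promoter windows held a GATA core, 29.1% a CCAAT box and 37.9% a GC box. Over the MIXL1 distances the shares were 17.6%, 28.1% and 35.8%. These matches describe letters and show no binding.

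Library totals ran from 25181737 to 62904698 counts. The targeted gene did not follow its labels: HYDIN2 had 12 counts in the control and 150, 112 and 11 in the libraries labelled knockdown replicates 1, 2 and 3. HYDIN2 is a near-identical partial copy of HYDIN, so its counts are uncertain. Directions below are therefore those of libraries labelled knockdown. Replicates 1 and 2 were at least 2-fold apart in 0.302% of 15880 genes, while replicate 3 stood at least 2-fold from them in 21.6% and 22.9%. Replicate 3 is therefore set apart in each result. Of the markers of embryonal carcinoma, 3 were abundant in all 4 libraries. LIN28A lay between 1910 and 3620 CPM, NANOG between 323 and 820 CPM and SOX2 between 259 and 300 CPM. POU5F1 was lower, between 19.4 and 42.8 CPM, and its 19.4 CPM in replicate 3 was under the 71.2 CPM of HAND1 there. ZFP42, another of the 15 markers, had at most 4 counts.

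Of the 10 factors 6 were abundant enough to be tested. Of those, HAND1, EOMES, GATA4, GATA6 and CDX2, 5 in number, lay above the control in all 3 labelled knockdown libraries, against 30.1% of genes. For CDX2 in replicates 1 and 2 and for EOMES in replicate 2 the difference was within counting error. HAND1 alone was at least 2-fold higher in all 3, against 3.65% of genes. In replicate 3 HAND1, GATA4, GATA6 and MIXL1 were at least 2-fold above the control, as were EOMES and CDX2, which reached the level for testing only through that library. TBXT, GSC, SOX17 and FOXA2 were too low to test. Levels are given as CPM, the usual counts-per-million unit on scaled library totals, with 95% Poisson intervals that cover counting error only. A gene was tested when the mean of its empty vector level and its mean knockdown level was at least 1 CPM, and it was called when it differed from the control by at least 1 log2 unit in the same direction in all 3 labelled knockdown libraries. With 1 empty vector library there is no replicate check on the control side, and no p-value is given for single factors. An SD over the 3 labelled knockdown libraries holds no error of the control. In bulk RNA, more cells that express a gene and more RNA per cell cannot be told apart.

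By this rule 1 of the 6 tested factors was called higher, against 3.65% of 15880 genes, and 0 were called lower, against 2.72%. The 5 factors that lay above the empty vector in all 3 libraries compare with 30.1% of genes, and the 0 below it in all 3 with 34.2%. The median log2 difference of the tested factors was 1.2, 0.86 and 2.39 in replicates 1, 2 and 3, beside 0.03, 0.05 and -0.15 over all tested genes. In single libraries, 4, 1 and 6 of the 6 factors were at least 2-fold higher in replicates 1, 2 and 3, against 11.3%, 10.4% and 11.3% of genes, and 0 were lower, against 7.5%, 6.71% and 15.9%. At 1.5-fold in all 3, 5 factors were higher, against 10% of genes, and 0 lower, against 9.61%. EOMES and CDX2 reached the level for testing only through replicate 3. These counts and medians over 6 factors are therefore no measure of the factors as a set. In replicates 1 and 2 alone, 1 of 4 tested factors was higher, against 9.76%, and 0 were lower, against 5.36%. With the level for testing at 0.1 CPM, 1 of 9 factors was higher in all 3, against 6.04%, and 7 of 9, among them TBXT, which reached 0.1 CPM only through replicate 3, were at least 2-fold above both others in replicate 3, against 15.7%. The plot of levels by library shows this pattern gene by gene.

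**Figure D1:**
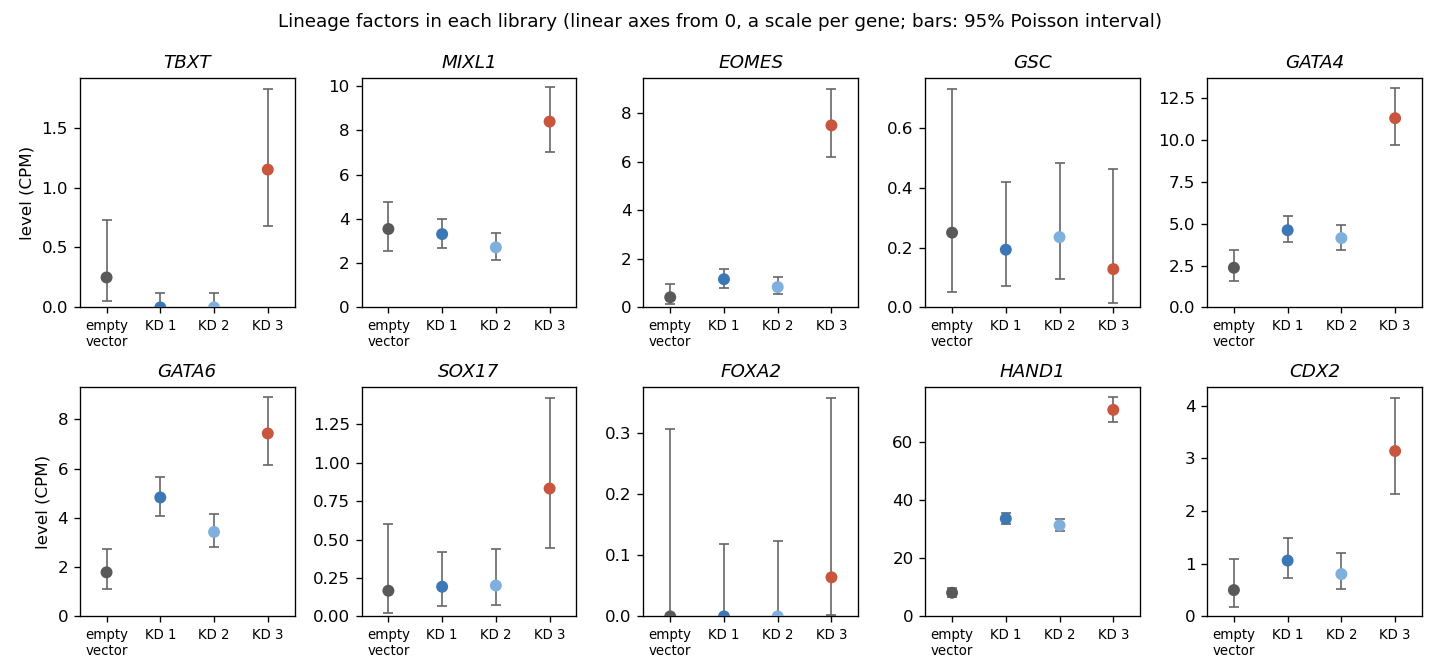
Level of each lineage factor in CPM (linear axes from 0, with a separate scale for each gene) in the control and labelled knockdown replicates 1 to 3 (KD 1 to KD 3). Points are single libraries and bars are 95% Poisson intervals. Replicate 3 has the highest point for each gene apart from GSC, and HAND1 is above the empty vector in all 3 knockdown libraries.

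HAND1 (ENSG00000113196.3) encodes a basic helix-loop-helix factor of trophoblast, extraembryonic mesoderm and heart. Its 2 exons span 154474972 to 154478264 of chromosome 5 (GRCh38, minus strand), with no overlapping gene in GENCODE 29. HAND1 had 196 counts in the control, a level of 8.16 CPM (6.63 to 9.95), and 2098, 1876 and 2223 in knockdown replicates 1, 2 and 3. Those counts are 33.7, 31.4 and 71.2 CPM, a mean of 45.4 ± 22.3 CPM (SD, n = 3).

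All 3 knockdown libraries lay above the control without overlap of their counting intervals. The ratio to it was 4.13 (95% binomial interval 3.35 to 5.13) in replicate 1, 3.85 (3.12 to 4.79) in replicate 2 and 8.72 (7.08 to 10.8) in replicate 3. The mean log2 difference was 2.36 ± 0.65 (SD, n = 3), larger than the spread between knockdown libraries, and 1.99 without replicate 3. Replicates 1 and 2 did not differ beyond counting error, with a ratio of 0.933 (0.853 to 1.02).

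CDX2 (ENSG00000165556.10, chromosome 13, 27962137 to 27971139, minus strand, 4 exons after merging transcripts) is the caudal-type homeobox factor of trophectoderm and hindgut. It was far less abundant than HAND1, with 12 counts in the control and 66, 48 and 98 in replicates 1, 2 and 3. The levels were 0.50, 1.06, 0.804 and 3.14 CPM in that order. Replicate 3 was 6.28 times the control (2.69 to 17.9). The ratios of 2.12 (0.877 to 6.19) and 1.61 (0.641 to 4.81) in replicates 1 and 2 included 1, so no difference was detectable there at this depth.

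EOMES (ENSG00000163508.13, chromosome 3, 27715949 to 27722711, minus strand) is a T-box factor of the primitive streak, needed for endoderm and mesoderm, and of trophoblast. It had 10 counts in the control, against 72, 50 and 234 in replicates 1, 2 and 3. The levels were 0.417 CPM and then 1.16, 0.838 and 7.49 CPM. Replicate 3 stood far above the rest, and its ratio to the control of 18.0 (7.49 to 56.4) was the highest ratio printed for any of the 10 factors.

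In replicate 1 the EOMES ratio was 2.78 (1.09 to 9.06), above 1, and in replicate 2 it was 2.01 (0.756 to 6.72), which included 1. The mean log2 difference of 2.11 ± 1.67 (SD, n = 3) exceeded its spread, but it was 1.16 without replicate 3. EOMES missed the 2-fold rule in replicate 2 alone, with a log2 difference of 0.93 after the prior count.

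MIXL1 (ENSG00000185155.12, chromosome 1, 226223618 to 226227054, plus strand, 2 exons) is a paired-type homeobox factor induced in the primitive streak. It did not separate the conditions, with 85 counts in the control and 206, 162 and 262 in replicates 1, 2 and 3. Its levels were 3.54 CPM in the control, 3.31 and 2.71 CPM in replicates 1 and 2, and 8.39 CPM in replicate 3. The groups overlapped, since replicates 1 and 2 lay just under the control and replicate 3 lay above it.

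The MIXL1 ratios of 0.934 (0.648 to 1.37) and 0.766 (0.522 to 1.14) in replicates 1 and 2 included 1, and that of 2.37 (1.66 to 3.43) in replicate 3 did not. Averaged over the 3 replicates, the log2 difference of MIXL1 was 0.25 ± 0.86 (SD, n = 3), within its spread, and it was -0.24 without replicate 3. LIN9, the neighbour used for MIXL1, had 67.8 CPM in the control and 69.3, 70.2 and 48.5 CPM in the replicates.

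TBXT (ENSG00000164458.10, chromosome 6, 166157656 to 166168700, minus strand), also called Brachyury, is the T-box factor that defines the primitive streak and early mesoderm. It had 6 counts in the control, 0 in replicates 1 and 2, and 36 in replicate 3. For libraries without a count, 6 counts (3 read pairs) served as the floor, which is 0.0964 CPM in replicate 1 and 0.101 CPM in replicate 2. Replicate 3, at 1.15 CPM (0.683 to 1.82), was 12 times the floor of replicate 1 and 11.5 times that of replicate 2. These folds are not lower limits, since the 95% intervals of replicates 1 and 2 reached 0.118 and 0.124 CPM. Against the control, itself at the floor, its ratio was 4.61 (1.35 to 24.4).

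GSC (ENSG00000133937.5, chromosome 14, 94768216 to 94770230, minus strand), a homeobox factor of the anterior streak, had 6, 12, 14 and 4 counts in the control and replicates 1, 2 and 3. These counts are 0.25, 0.193, 0.235 and 0.128 CPM. No difference in GSC was detectable at this depth, with ratios of 0.771 (0.165 to 4.77) and 0.938 (0.214 to 5.62) in replicates 1 and 2. GSC was the only factor of the 10 whose highest level was not in replicate 3.

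GATA4 (ENSG00000136574.19, chromosome 8, 11676959 to 11760002, plus strand) and GATA6 are zinc finger factors of primitive endoderm and heart that bind GATA sites. GATA4 had 57 counts in the control and 287, 247 and 354 in replicates 1, 2 and 3. Its levels were 2.37 CPM and then 4.61, 4.14 and 11.3 CPM, and each of the knockdown libraries lay above the control. The GATA4 ratios of 1.94 (1.29 to 3.01), 1.74 (1.15 to 2.72) and 4.77 (3.20 to 7.36) all had intervals above 1. A difference of 2-fold was not reached in replicates 1 and 2, so GATA4 was not called.

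GATA6 (ENSG00000141448.11, chromosome 18, 22169443 to 22202528, plus strand) had 43 counts in the control and 301, 205 and 232 in replicates 1, 2 and 3. The levels were 1.79 CPM and then 4.83, 3.43 and 7.43 CPM, again with all 3 knockdown libraries higher. Its ratios were 2.7 (1.71 to 4.46), 1.92 (1.2 to 3.21) and 4.15 (2.6 to 6.91), and replicate 2 alone kept GATA6 from the call. GATA6 was the tested factor whose level differed between replicates 1 and 2 beyond counting error, with a ratio of 0.710 (0.547 to 0.919).

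The mean log2 differences of the GATA pair were 1.32 ± 0.79 for GATA4 and 1.45 ± 0.55 for GATA6 (SD, n = 3), and 0.87 and 1.17 without replicate 3. GATA6 shares 561 exonic bases with annotated genes on the other strand, GATA6-AS1 among them. GATA6-AS1 had 4, 6, 4 and 28 counts in the control and replicates 1, 2 and 3, fewer than GATA6 in each. The strand setting of the counting is not given in the sources used here.

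SOX17 (ENSG00000164736.6, chromosome 8, 54457935 to 54460888, plus strand) is an HMG-box factor of definitive and primitive endoderm. It had 4 counts in the control, 12 in each of replicates 1 and 2, and 26 in replicate 3, or 0.167, 0.193, 0.201 and 0.832 CPM. Replicate 3 was 4.99 times the control (1.13 to 45.6), an interval set by the 4 counts of the latter. Replicates 1 and 2, with ratios of 1.16 (0.207 to 11.7) and 1.21 (0.216 to 12.2), showed no detectable difference.

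FOXA2 (ENSG00000125798.15, chromosome 20, 22581005 to 22585455, minus strand), a forkhead factor of definitive endoderm, floor plate and notochord, had 0 counts in the control and in replicates 1 and 2, and 2 in replicate 3. All 4 libraries were thus at or under the floor, which was 0.25 CPM in the control, and no fold is given. Its exons overlap AL121722.1 in part on the same strand. Endoderm factors were therefore not all alike in replicate 3, where GATA4 and GATA6 were well above the floor and FOXA2 was not.

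**Figure D2:**
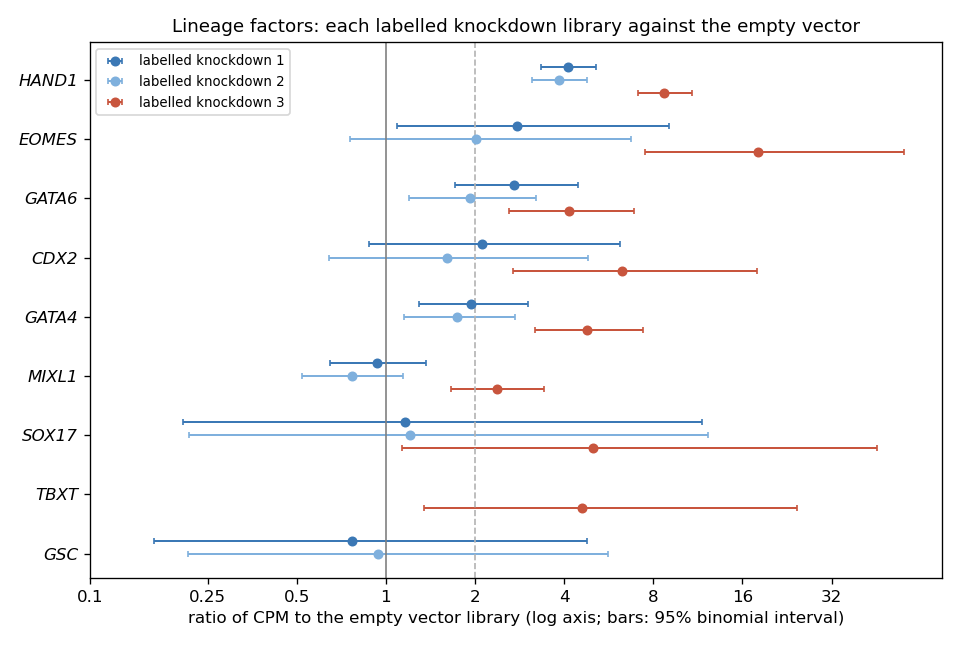
Ratio of CPM in labelled knockdown replicates 1, 2 and 3 to the control on a log axis, with 95% binomial intervals. The solid line is a ratio of 1 and the dashed line a ratio of 2. FOXA2, and libraries of TBXT and GSC in which both counts are at or under the floor, are left out. HAND1 lies right of the dashed line in all 3 libraries, and EOMES in replicate 3 lies farthest right at 18.0.

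Levels of different genes were compared per kilobase of merged exons. In the control HAND1 led with 4.70 CPM per kb, followed by MIXL1 with 1.75, GATA4 with 0.534 and GATA6 with 0.454 CPM per kb. In the labelled knockdown libraries HAND1 had 26.1 ± 12.8 CPM per kb (SD, n = 3) and MIXL1 2.37 ± 1.54. GATA4 at 1.51 ± 0.906 and GATA6 at 1.33 ± 0.514 CPM per kb did not differ from each other beyond their spread. EOMES, at 0.865 ± 1.03 CPM per kb, had a spread above its mean, with 2.05 in replicate 3 and 0.316 and 0.229 in replicates 1 and 2.

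Replicate 3 was compared with replicates 1 and 2 directly, which leaves the single empty vector library out. Of the 6 tested factors, 5 were at least 2-fold higher in replicate 3 than in both others, against 6.79% of 16001 genes, and 0 were lower, against 13.0%. Here a gene was tested at a mean of at least 1 CPM over the 3 labelled knockdown libraries. EOMES and CDX2 averaged under 1 CPM in replicates 1 and 2, so they were tested only through replicate 3. That filter favoured higher levels in replicate 3 without fixing a 2-fold difference, and the share is no measure of the factors. Of the other 4, MIXL1, GATA4 and HAND1 passed and GATA6 did not. EOMES was 6.48 times as high in replicate 3 as in replicate 1 (4.42 to 9.69) and 8.94 times as high as in replicate 2 (5.77 to 14.4). CDX2 had ratios of 2.96 (1.87 to 4.75) and 3.90 (2.35 to 6.65). MIXL1 had 2.53 (1.94 to 3.31) and 3.09 (2.33 to 4.13).

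GATA4 was 2.46 (1.96 to 3.09) and 2.74 (2.16 to 3.47) times as high in replicate 3 as in replicates 1 and 2. HAND1 passed narrowly, with ratios of 2.11 (1.94 to 2.3) and 2.26 (2.07 to 2.47), and missed the rule with TMM factors from all genes, which left 4 factors. GATA6 was the tested factor outside the rule, with 1.54 (1.2 to 1.97) and 2.16 (1.64 to 2.85). The plot of replicate 3 against the other replicates shows all 6 above 0.

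Of 14 tested pluripotency markers, 3 (NANOG, TDGF1 and PRDM14) were at least 2-fold lower in replicate 3 than in both others, against 13.0% of genes, and 1 (GDF3) was higher, against 6.79%. POU5F1, LIN28A, LIN28B and DPPA4 fell just short of that rule, with log2 differences of -0.87 to -1.03 from replicates 1 and 2. POLR3G had -0.33 and -0.49, and TERF1 had 0.26 and 0.17. SOX2, SALL4, L1TD1 and DNMT3B differed by at most 0.21 log2 units. The summed level of the markers, of which LIN28A was the largest part, was 4870 CPM in replicate 3, 7710 and 7970 CPM in replicates 1 and 2, and 8230 CPM in the control. HYDIN2 was lower in replicate 3 than in replicate 1 at the same time, with a ratio of 0.146 (0.0492 to 0.344). The part of either in the levels of the lineage factors was not tested.

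**Figure D3:**
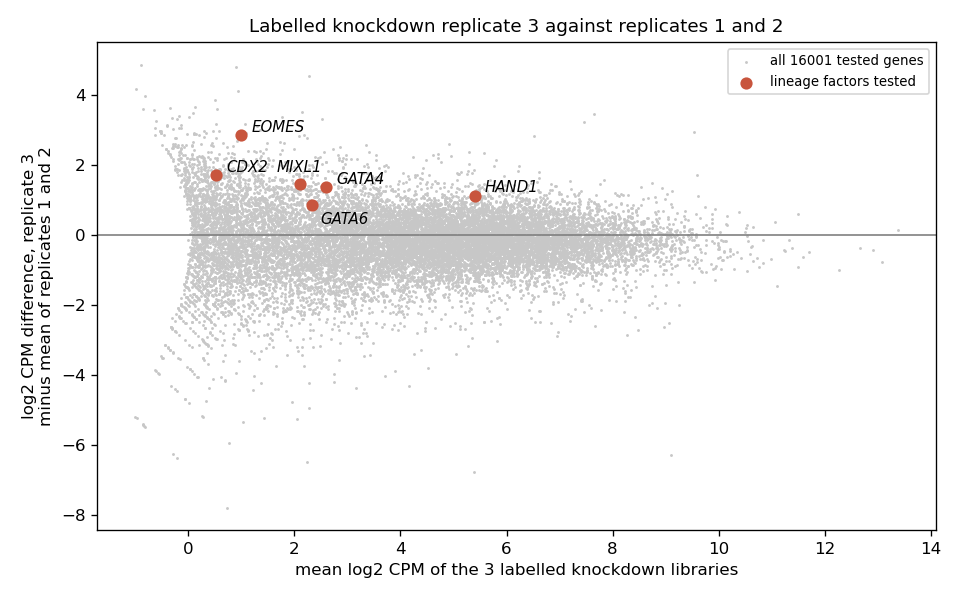
Difference in log2 CPM between labelled knockdown replicate 3 and the mean of replicates 1 and 2 (vertical axis) against the mean log2 CPM of these 3 libraries (horizontal axis). Grey points are all 16001 tested genes and red points the 6 tested lineage factors. All 6 lie above 0, with EOMES highest. EOMES and CDX2 reached the level for testing here only through replicate 3.

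edgeR's quasi-likelihood test with Benjamini-Hochberg adjustment called 0 of 26029 genes (0%) between the control and the labelled knockdown libraries, and 0 of the 9 factors it could test. Before adjustment 3023 genes had p under 0.05, HAND1 among them. The Wald test of DESeq2 called 271 of 15725 genes (1.72%), with HAND1 as the single called factor of 6. Without replicate 3, edgeR called 11177 of 25016 genes (44.7%), including HAND1, GATA4 and GATA6 among 8 factors tested. Without replicate 1 it called 0.0737% of genes and 0 of 8 factors, and without replicate 2 0.169% and 1 of 8, HAND1. These tests take their spread from the knockdown libraries and compare 1 library with them, not the conditions.

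Other genes of the same lineages were examined in lists that leave out the 10 factors. Of 28 mesoderm genes 19 were tested, of which 2 were higher and 0 lower in all 3 labelled knockdown libraries, with a median log2 difference of 0.28. Of 28 endoderm genes 13 were tested, of which 4 were higher and 0 lower, with a median of 0.57, or 1.28 without replicate 3. Of 33 trophoblast genes 15 were tested, of which 3 were higher and 0 lower, with a median of 0.55. Over all tested genes 3.65% were higher and 2.72% lower, and the median was -0.02. At any size of difference, 9 mesoderm, 9 endoderm and 7 trophoblast genes lay above the control in all 3 libraries. Below it in all 3 lay 7, 0 and 2 genes, and over all tested genes the shares were 30.1% above and 34.2% below. DLX5, 1 of the 7 trophoblast genes above the control, reached the level for testing only through replicate 3. Of the 14 trophoblast genes that reached it without replicate 3, 6 lay above the control in all 3 libraries. Without replicate 3, 6 mesoderm genes were higher and 2 lower, with a median of 0.45, 6 of 12 endoderm genes were higher and 0 lower, and 4 of 14 trophoblast genes were higher and 1 lower, against 9.76% and 5.36% of genes. PDGFRA stands in the mesoderm and endoderm lists and ISL1 in the mesoderm and trophoblast lists.

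The mesoderm genes called higher were TBX5 and RUNX1. TBX5, a T-box factor of heart and forelimb, had 0.916 CPM in the control and 5.23 ± 2.29 CPM (SD, n = 3) in the knockdown libraries, with log2 differences of 2.00, 2.08 and 3.04. Replicate 3 was the highest for TBX5, as it was for HAND1. RUNX1, a factor of blood formation, had 18.8 CPM against 52.1 ± 5.32 CPM (SD, n = 3), at similar levels in the 3 replicates. Other mesoderm genes were lower than the control, such as WT1 and TCF15, named after their values were seen. WT1 had log2 differences of -0.99, -1.33 and -1.11 in replicates 1, 2 and 3, and missed the lower call in replicate 1 alone. TCF15 had -0.86, -1.12 and -1.6.

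Among endoderm genes, PRDM1, a zinc finger repressor of endoderm and germ cell precursors, had 1.25 CPM in the control and 15.8, 13.7 and 5.28 CPM in replicates 1, 2 and 3. Replicate 3 was the lowest of the 3 replicates for PRDM1 and the highest for GATA4 and GATA6. The basement membrane genes LAMB1 (75.6 CPM against 188 ± 9.55 CPM, SD, n = 3) and COL4A1 (70.4 against 168 ± 14.1 CPM) rose by similar factors in each replicate. DAB2, an endocytic adaptor of primitive endoderm, had 17.2 CPM against 43.0 ± 3.56 CPM (SD, n = 3). LAMB1, COL4A1 and DAB2 are expressed in many other cell types.

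The secreted and later endoderm markers were low or differed between replicates. CER1, a secreted NODAL and BMP inhibitor of anterior endoderm, had 8 counts in the control, 324 and 222 in replicates 1 and 2 and 10 in replicate 3. CER1 was named after its values were seen. AFP had 0, 8, 10 and 6 counts, ALB 0, 4, 4 and 0, and TTR 0, 4, 4 and 0. These genes encode products of liver and yolk sac, and none had over 10 counts.

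Among trophoblast genes, TFAP2A, an AP-2 factor of trophoblast and surface ectoderm, had 4.54 CPM in the control and 15.1, 13.6 and 70.3 CPM in replicates 1, 2 and 3. TBX3, a T-box factor of several early lineages, had 10.3 CPM against 33.8, 30.1 and 84.4 CPM. GATA2 had 9.66 CPM against 22.5 ± 3.91 CPM (SD, n = 3). TFAP2A and TBX3 were highest in replicate 3, while other genes of the list, named after their values were seen, were lowest there among the replicates. TFAP2C had 180, 174 and 67.4 CPM in replicates 1, 2 and 3, KRT7 had 11.4, 12.3 and 4.45 CPM, and TEAD4 had 240, 239 and 133 CPM.

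SDC1, a surface proteoglycan in the trophoblast list, had 28.3 CPM in the control and 11.1, 11.8 and 28.4 CPM in replicates 1, 2 and 3. It was named after its values were seen. The other products of mature trophoblast named here ranged from 0 to 66 counts in a library. PSG1, a pregnancy-specific glycoprotein, had 2 counts in the control and 43, 33 and 42 in replicates 1, 2 and 3, and CYP19A1, the aromatase gene, had 15, 66, 52 and 66. The fusion genes ERVW-1, with 10, 25, 12 and 51 counts, and ERVFRD-1, with 2, 4, 2 and 22, were highest in replicate 3. PSG1, CYP19A1, ERVW-1 and ERVFRD-1 were under the level for testing and were named after their values were seen. CGB3, CGB5, HLA-G, VGLL1, KRT23 and PAGE4 had 0 counts in all 4 libraries, and CGA had 2 counts in the control alone. CGB3 and CGB5 are near-identical copies, so reads may be split between them or left uncounted. GCM1 had at most 2 counts and ELF5 at most 5. In all, 11 of the 33 trophoblast genes were at or under the floor in each library. The epithelial keratins KRT8 and KRT18, also in that list, were lower in all 3 knockdown libraries than the 702 and 401 CPM of the control, but by less than 2-fold.

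**Figure D4:**
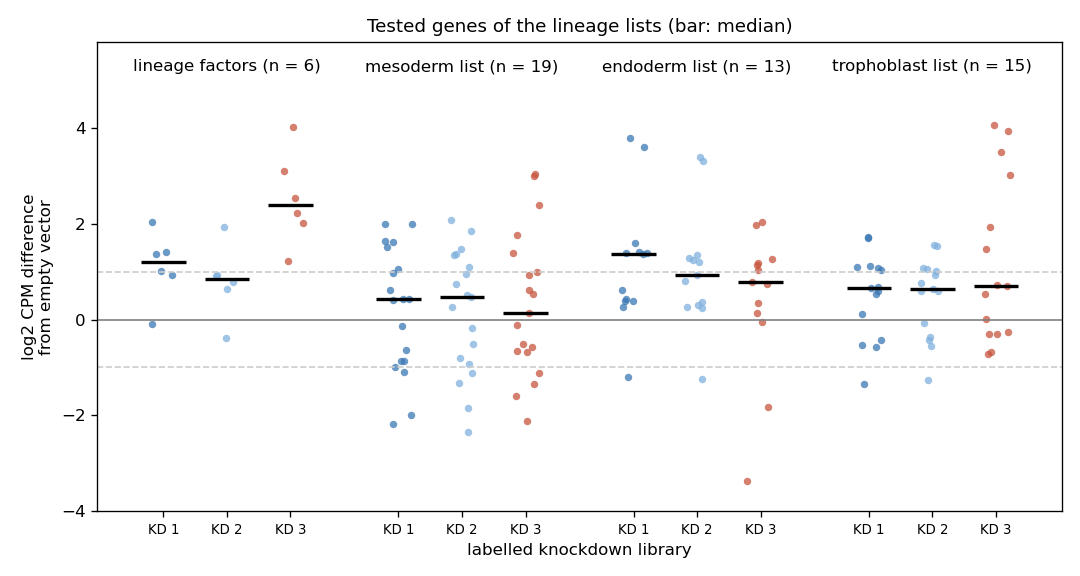
Difference in log2 CPM from the control for each tested gene, in labelled knockdown replicates 1, 2 and 3 (KD 1 to KD 3), for the 6 tested lineage factors and for the mesoderm (19), endoderm (13) and trophoblast (15) lists. Points are genes, black bars are medians and dashed lines mark 2-fold. The median of the lineage factors is 2.39 in replicate 3, and that of the mesoderm list there is 0.13. Among the factors, EOMES and CDX2 reached the level for testing only through replicate 3. So did GATA5 in the endoderm list and DLX5 in the trophoblast list.

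In the contrast of replicate 3 with replicates 1 and 2, the lists did not move one way. Of 20 mesoderm genes tested there, 4 were at least 2-fold higher in replicate 3 and 3 lower. Of 12 endoderm genes 0 were higher and 4 lower, and of 17 trophoblast genes 7 were higher and 2 lower, against 6.79% and 13.0% of all genes. The mesoderm genes that were higher included TBX6, ISL1 and APLNR, named after their values were seen. TBX6 and ISL1 in the mesoderm list, and ISL1 and DLX5 in the trophoblast list, averaged under 1 CPM in replicates 1 and 2. They were therefore tested only through replicate 3. For ISL1, at 0.45 and 0.57 CPM in replicates 1 and 2, this fixed its place among the higher genes. For TBX6 and DLX5 it favoured that place without fixing it. APLNR, the apelin receptor of early mesoderm, had 7.54 CPM in the control, 1.86 and 1.44 CPM in replicates 1 and 2 and 39.8 CPM in replicate 3. The endoderm genes that were lower included CER1, FOXA3 and PRDM1.

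Close relatives of the 10 factors did not share their pattern throughout. CDX4, a caudal-type relative of CDX2, had 38 counts in the control and 8, 2 and 5 in replicates 1, 2 and 3, a ratio of 0.0812 (0.0201 to 0.244) in replicate 1. CDX1 had 6, 22, 16 and 28 counts. GSC2, a relative of GSC, had 2.17 CPM in the control and 0.867, 0.503 and 0.64 CPM in the replicates, and fell by the 2-fold rule in all 3. HAND2, the relative of HAND1, had 6, 6, 12 and 36 counts, so only replicate 3 was clearly above the floor.

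GATA5 had 1.17 CPM in the control and 0.482, 0.469 and 1.98 CPM in the replicates, and so lay on both sides of it, unlike GATA4 and GATA6. FOXA1 had 0, 52, 26 and 2 counts, and FOXA3 had 10.4 CPM against 15.9, 18.1 and 2.91 CPM. FOXA1 and FOXA3 were thus higher in replicates 1 and 2 than in replicate 3, where GATA4 and GATA6 were highest. SOX7 had 3.62 CPM against 4.55 ± 0.238 CPM (SD, n = 3), and SOX18 stayed at or below 0.896 CPM. TBX19, a T-box relative of TBXT, had 0.50 CPM against 1.15 ± 0.288 CPM (SD, n = 3).

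Markers of other cell types were read from the same libraries, beside 3.65% of all tested genes called higher and 2.72% called lower. Of 12 neural genes 8 were tested, with 2, PAX6 and MAP2, higher and 0 lower, and their summed level was 243 CPM in the control and 414 to 438 CPM in the knockdown libraries. NES was the largest part of that sum, with 167 CPM in the control and 270 to 291 CPM in the knockdown libraries. SOX1, NEUROG2 and NEUROD1 had at most 19 counts. Of 7 fibroblast genes 6 were tested, with 1, POSTN, higher and 0 lower, and their summed level was 473 CPM in the control and 354 to 600 CPM in the others. THY1 was the largest part of the fibroblast sum, with 362 CPM in the control and 210 to 394 CPM in the others. DCN, a defining fibroblast gene, had 2 counts in replicate 2 and 0 elsewhere. Of 15 pluripotency genes 14 were tested, with 0 higher and 1, DNMT3B, lower. PAX6, a neural and eye factor, had 0 counts in the control and 957, 784 and 92 in the replicates. The part of these cell type markers in the levels of the lineage factors was not tested.

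Genes with the most similar pattern over the 4 libraries were found for each tested factor among 15874 genes, by the root mean square difference of log2 CPM centred on each gene's mean. With 4 libraries, of which replicates 1 and 2 are nearly alike, many genes can lie close by. MIAT, a long noncoding RNA, was nearest to HAND1 at 0.061, followed by SEMA3C, a secreted semaphorin, at 0.076. For EOMES they were GNG12-AS1 at 0.139 and the homeobox gene MSX1 at 0.186, and for GATA4 they were ITIH5 at 0.037 and the fibrillin gene FBN2 at 0.061. SHROOM3-AS1 at 0.045 and ENSG00000287917 at 0.085 were nearest to GATA6, and SH3BP5-AS1 at 0.051 and ENSG00000286431 at 0.067 to CDX2. MIXL1 lay 0.005 from ENSG00000289463 and 0.031 from ENSG00000285979, genes with no symbol in the files.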

How the data were processed

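Each library came with a count table of 62696 genes, deposited as raw counts. Per the submitters' processing notes the tools were STAR 2.7.11b, featureCounts 2.0.6 and DESeq2, on GRCh38; annotation release and strand setting are not given in the sources used here. Column names in the file headers read LacZ control and GKAP_KIF27 instead of the titles' groups; the titles were used. Between 65.2% and 68.0% of nonzero counts were even, a pattern of reads counted in pairs, so intervals used counts divided by 2.

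Counts were scaled with TMM factors (0.953 for the empty vector, 0.99, 0.969 and 1.09 for the replicates) from edgeR 4.0.16 in R 4.3.3, using genes kept by filterByExpr. Log2 CPM used a prior count of 2. DESeq2 1.42.0 was an alternative. Tested on simulated data, the rule recovered most changed genes but also called unchanged genes where spread was drawn gene by gene. Coordinates and lengths are from GENCODE 29, and promoters from RefSeq (read for 7 of 10 factors). The factors on chromosome 8, GATA4 and SOX17, were left out of the promoter reading. Relatives were named at 10 counts or more, list genes if past the 2-fold rule (at most 4 a direction), and the 2 nearest patterns per tested factor. Factors and lists were chosen with earlier results of these data known. Alternatives covered scaling, prior count, filters, fold, omitted libraries, thinning and trends on length and GC. Some genes of the lists are counted but not reported by name here.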

Additional observations from a re-analysis of the deposited data

How the results depend on the processing

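Over 11 alternatives the mean log2 difference of HAND1 ran from 1.99 to 2.77, GATA6 from 1.17 to 1.72, GATA4 from 0.87 to 1.59, EOMES from 1.16 to 2.7 and CDX2 from 0.83 to 1.78, lowest in each case without replicate 3. MIXL1 turned to -0.24 without replicate 3, and GSC to 0.14 when trends on transcript length and GC were removed. HAND1 stayed called under every alternative to the 2-fold rule. The number of factors called higher was 1, and 1 to 4 with a replicate left out (4 without replicate 2, adding EOMES, GATA6 and CDX2), 2 after trend removal (adding EOMES) and 5 at 1.5-fold, a limit that 10.0% of genes passed. EOMES and CDX2 entered these counts only through replicate 3. Genes called higher numbered 1605 at a mean CPM of 0.1, 2526 without a filter and 1590 at 1.5-fold. Genes called lower numbered 1035, 1810 and 1526 there. After trend removal 396 genes were called higher and 272 lower, against 580 and 432 by the main rule. Before it, the log2 difference from the control rose with transcript length in replicates 1, 2 and 3 (Spearman correlation 0.347, 0.298 and 0.46). Leaving out replicates in turn gave 615 to 1542 higher and 485 to 846 lower. In replicate 3 against the others, 4251 genes were higher and 3577 lower at a mean CPM of 0.1. DESeq2 called 271 genes and 1 factor. Leaving out replicates, edgeR called 17 to 11177 genes and 0 to 3 factors. Without replicate 3, a choice made after seeing the data, the endoderm median was 1.28 and the trophoblast median 0.65. The cause of these shifts was not tested. No paired analysis was possible because a single control library cannot form pairs with 3 replicates. At 12 counts or fewer in the empty vector library, depth limits TBXT, GSC, SOX17, FOXA2, EOMES and CDX2.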
